A study of Mus musculus with 16 samples.

Results

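The Hox genes of the mouse embryonic gonad are described here across both sexes, both genotypes and both stages of a Wnt4 knock-out study. Members were all genes whose symbol in the array's annotation is Hoxa, Hoxb, Hoxc or Hoxd followed only by digits. There were 33 of them among the 18193 genes with a probe set (a set of probes that reads out 1 transcript region) of their own, and 24 of the 33 passed the filter on dim values, among 12332 genes tested. Each gene was read from its brightest probe set. Membership was set by symbol alone, although this set was chosen with earlier results of these data known.

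Gonads were dissected from embryos at embryonic day 14.5 (E14.5) and at embryonic day 12.5 (E12.5), staged by their form, and total RNA was hybridised to Affymetrix Mouse430_2 arrays. The 8 groups of 2 arrays were Wnt4 knock-out (KO) testis at E14.5, wild-type (WT) testis at E14.5, KO ovary at E14.5, WT ovary at E14.5, KO testis at E12.5, WT testis at E12.5, KO ovary at E12.5 and WT ovary at E12.5. Wnt4 encodes a secreted WNT signal with a known part in ovary and duct development. By their source names the 2 samples of a group are biological replicates, but the number of embryos behind each array is not stated, and p-values thus reflect no more than the differences among these arrays. They name neither strain nor allele, titles of the male samples say ovary where the source names say testis, and these arrays were taken as testis. Whole gonads were used, so fewer cells of a type and less RNA per cell cannot be told apart.

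Hox genes encode homeodomain transcription factors, and their order along each cluster mirrors the order in which they are used along the body axis, with low paralog numbers anterior and high ones posterior. Their proteins bind DNA with partners of the PBX and MEIS families, and retinoic acid, Polycomb and Trithorax proteins set which genes of a cluster are open. In the urogenital tract Hoxa9 to Hoxa13 are known for patterning the Müllerian duct into oviduct, uterus and vagina, and Hoxa10 also for descent of the testis.

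Some arrays stood apart. Wnt4 read 351 and 302 in KO ovary against 1138 and 1150.5 in WT ovary at E14.5, but 839 and 520.2 in the E12.5 ovary arrays labelled knock-out against 844 and 1822 in WT ovary. The first of these E12.5 arrays lies beside a WT value, so its group is called labelled knock-out, and directions that rest on it carry that doubt. In testis Wnt4 read 277 and 371 in KO against 753 and 512 in WT at E14.5. It read 413 and 231 in KO testis against 502 and 473 in WT testis at E12.5. Wnt4 passed the test at E14.5 in ovary (limma adjusted p = 0.0453) but not in testis (limma unadjusted p = 0.0202). Neither sex passed it at E12.5 (limma adjusted p = 0.53 in both). KO testis E12.5 replicate 1 thus read little below WT, so at E12.5 KO testis is also a name by label, and means over KO groups hold both E12.5 groups. Control probe sets of actin and Gapdh gave a 3'/5' ratio, a measure of how complete the labelled RNA was, of 2.27 in labelled KO ovary E12.5 replicate 1, 1.76 in KO testis E12.5 replicate 1 and 1.76 in WT ovary E12.5 replicate 2, against 1.06 to 1.36 in the other 13 arrays. Sex-linked transcripts corresponded to 16.5% to 22.8% RNA of the other sex in KO testis E14.5 replicate 2, WT testis E14.5 replicate 2, WT ovary E14.5 replicate 2, labelled KO ovary E12.5 replicate 2 and WT ovary E12.5 replicate 1, to 6.95% in WT ovary E12.5 replicate 2 and to at most 0.432% in the other 10. The WT testis E12.5 arrays were nearly identical (SD of their log2 difference 0.14, against 0.34 to 0.59 in the other 7 groups). Counts are given with all arrays, without the 3 of high 3'/5' ratio, and without the 3 E14.5 arrays of high opposite-sex share. They are also given with the WT testis E12.5 arrays averaged. Labelled KO ovary E12.5 replicate 2 and WT ovary E12.5 replicate 1 were left out only 1 at a time. Mean intensity per array was 272 to 288, and the small number of arrays limits the precision.

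Most Hox genes passed the array median in at least 7 arrays. Of the 33 genes, 18 were above the array median in all 16 arrays, 6 in 7 to 15 arrays, 2 in 1 array and 7 in none. Cluster A had 8 of 9 genes tested, cluster B 6 of 9, cluster C 6 of 7 and cluster D 4 of 8. The 9 genes that did not pass were Hoxa13, Hoxb1, Hoxb7, Hoxb13, Hoxc13, Hoxd1, Hoxd11, Hoxd12 and Hoxd13, and their highest reading on any array was 11.95. They hold all 4 members of paralog group 13. Hoxd11 reached that highest reading in KO ovary E14.5 replicate 2 and read 4.32 to 7.54 in the other 15 arrays. Hoxd1 read 11.3 in WT ovary E12.5 replicate 1 and 4.66 to 9.14 elsewhere.

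Among the tested genes Hoxa2, a hindbrain and branchial arch gene, passed the array median in 15 arrays, as did Hoxb2, a hindbrain gene. Hoxb4, known in blood stem cells, passed it in 13, Hoxa11, a kidney and uterus gene, in 11, Hoxa4 in 9, and Hoxb9 in 7. Another 3 probe sets matched a pair of Hox genes each (Hoxd3 with Hoxd4 on 2 of them, and Hoxb7 with Hoxb8) and were not used, which is why Hoxd4 and Hoxb8 are not analysed here. The map of all 24 tested genes over the 16 arrays shows the main pattern of the readings, a bluer E14.5 side in most rows of clusters A, B and C.

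**Figure D1:**
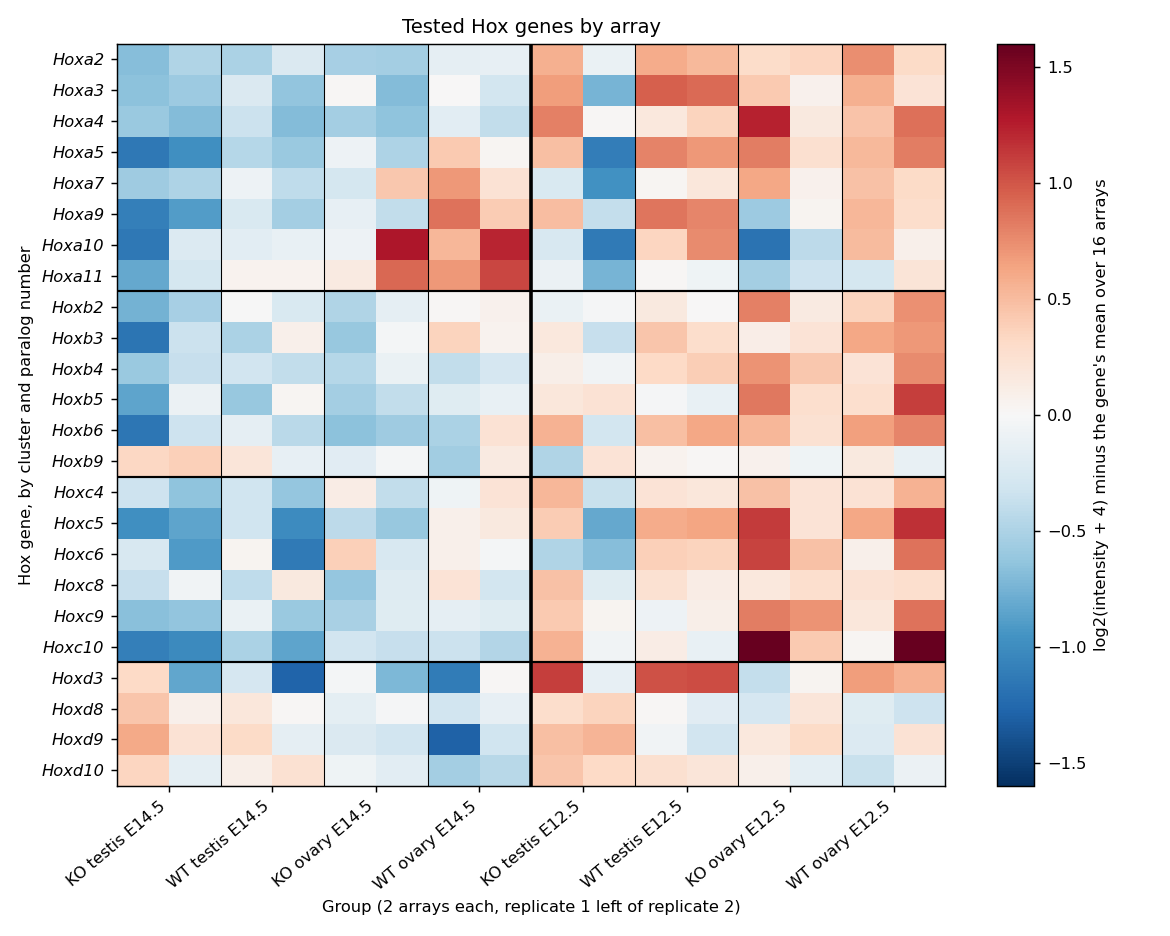
Each square is log2(intensity + 4) of 1 tested Hox gene (rows, by cluster and paralog number) on 1 array (columns, 2 per group), minus the gene's mean over 16 arrays; red is above that mean and blue below it. E14.5 groups stand left of the thick line and E12.5 groups right of it, and the KO testis E12.5 column of replicate 2 is lower than that of replicate 1 in all 8 Hoxa and all 6 Hoxc rows.

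Promoter sequence is shown for 4 genes chosen after their values were seen. Hoxa9 was called for genotype and for the interaction of stage and sex, Hoxd10 was called for sex, and Hoxd8 and Hoxd9, its cluster neighbours, had no call in any comparison; Hoxa7 and Hoxc6, the other genes called for sex, are not shown. Each is the 250 bases before the gene's start in RefSeq, build GRCm38.p6, 5' to 3' on the gene's strand, at chr6:52227371-52227620 (minus strand) for Hoxa9, chr2:74704365-74704614 (plus strand) for Hoxd8, chr2:74697513-74697762 (plus strand) for Hoxd9 and chr2:74691641-74691890 (plus strand) for Hoxd10. Capitals mark letters of 3 motifs searched on both strands, CTTTGA (the core that TCF and LEF factors of the WNT pathway bind), AGGTCA (the half-site of retinoic acid and other nuclear receptors) and CCAAT (a general promoter box).
Hoxa9: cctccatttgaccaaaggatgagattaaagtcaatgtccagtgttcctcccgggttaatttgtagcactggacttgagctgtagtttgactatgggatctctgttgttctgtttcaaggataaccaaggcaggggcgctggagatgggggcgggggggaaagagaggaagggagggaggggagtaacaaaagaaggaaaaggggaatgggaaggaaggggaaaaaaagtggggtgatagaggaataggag
Hoxd8: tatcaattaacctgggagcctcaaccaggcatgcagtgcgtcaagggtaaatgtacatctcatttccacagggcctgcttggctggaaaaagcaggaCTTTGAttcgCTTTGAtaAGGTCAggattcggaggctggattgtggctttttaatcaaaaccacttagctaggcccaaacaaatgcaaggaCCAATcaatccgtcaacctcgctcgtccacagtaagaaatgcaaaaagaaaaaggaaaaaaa
Hoxd9: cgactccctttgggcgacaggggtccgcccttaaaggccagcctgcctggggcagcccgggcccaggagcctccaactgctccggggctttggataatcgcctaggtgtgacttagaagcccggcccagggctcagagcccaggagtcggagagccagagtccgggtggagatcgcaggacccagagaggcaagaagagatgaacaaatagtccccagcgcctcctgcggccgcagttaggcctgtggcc
Hoxd10: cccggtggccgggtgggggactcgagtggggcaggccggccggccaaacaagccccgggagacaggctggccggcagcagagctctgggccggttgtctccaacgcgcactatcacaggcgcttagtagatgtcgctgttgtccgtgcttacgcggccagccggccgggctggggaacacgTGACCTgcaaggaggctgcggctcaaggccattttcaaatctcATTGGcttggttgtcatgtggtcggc
The Hoxd8 window held 2 CTTTGA, 1 AGGTCA and 1 CCAAT, none of which overlapped. The Hoxd10 window held 1 AGGTCA and 1 CCAAT, both on the opposite strand, so they stand as TGACCT and ATTGG above. The Hoxa9 and Hoxd9 windows held none of the 3. GC content was 49.6% for Hoxa9, 44.4% for Hoxd8, 65.2% for Hoxd9 and 65.6% for Hoxd10.

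RefSeq promoters were at hand for 19 of the 33 Hox genes. CTTTGA stood in 2 of these 19 windows (10.5%, Hoxd8 and Hoxd12), against 14% of all 27025 gene promoters of the same length. AGGTCA stood in 5 (26.3%, Hoxb4, Hoxc4, Hoxd3, Hoxd8 and Hoxd10), against 13.8% of all. CCAAT stood in 10 (52.6%), against 34.5% of all. These letter matches are descriptions of the windows and no evidence of binding.

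The comparison of stages asked which Hox genes differed between E14.5 and E12.5, averaged over the 4 pairs of genotype and sex. Of 24 tested Hox genes, 16 fell and 1 rose at E14.5, where 26.5% of all genes tested passed the same threshold of an adjusted p under 0.05, 13.5% lower and 13% higher. The Hox median was -0.53 on the log2 scale, against -0.03 for all genes tested. Changes were computed as differences of log2(intensity + 4), so those of dim genes come out too small. All 5 tested genes of paralog groups 1 to 3 fell (median -0.77), 8 of 11 of groups 4 to 8 fell (median -0.69), and in groups 9 to 13 there were 3 of 8 that fell and 1 that rose (median -0.23). The 16 that fell, and the 8 of groups 4 to 8, include Hoxa4, which passed the filter only through E12.5.

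In 5 genes the 8 arrays at E14.5 all read below the 8 at E12.5, Hoxa2, Hoxa4, Hoxb4, Hoxc9 and Hoxc10, a separation that 2.31% of all genes tested showed in this direction. Hoxa2 read 9.47, 11.4 and 15.7 at E14.5 (lowest, median and highest of 8 arrays) against 16.04, 25.2 and 32.4 at E12.5 (log2 change -0.82, SE 0.12, limma adjusted p = 0.000215). Hoxa4, which patterns the neck vertebrae, read 6.33, 7.29 and 10.9 at E14.5 against 12.9, 18.1 and 35.2 at E12.5 (log2 change -1.02). Both are dim genes at E14.5. Hoxa4 lay at or under the array median in 7 of 8 E14.5 arrays and above it in all 8 E12.5 arrays, so it passed the filter through E12.5, its call is no support for a stage difference, and its change is measured against readings at or under the median.

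Hoxb4 read 8.12, 9.99 and 12.9 at E14.5 against 13.5, 19.3 and 26.7 at E12.5 (log2 change -0.72, SE 0.10, limma adjusted p = 0.000252). Hoxc9, a thoracic gene known for setting motor neuron identity, read 10.8, 14.4 and 17.7 at E14.5 against 18.2, 25.03 and 39.0 at E12.5 (log2 change -0.76, SE 0.13, limma adjusted p = 0.00069). Hoxc10, a lumbar gene, read 74.3, 116 and 132 at E14.5 against 149, 198 and 713 at E12.5 (log2 change -1.23, SE 0.27, limma adjusted p = 0.00535). The E14.5 arrays were close together for Hoxc10, and the E12.5 spread came from the ovary, with 616 and 219 in labelled KO ovary and 166 and 713 in WT ovary. The high array of each of these pairs is the one with the high 3'/5' ratio, and whether that sets the reading was not tested. Without the 3 arrays of high ratio the log2 change of Hoxc10 was -0.71 (limma adjusted p = 0.0028), against -1.23 with them.

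Other anterior and central genes fell with overlap between the stages. Hoxa3, a pharyngeal arch gene, read 74.0, 89.1 and 123 at E14.5 against 71.2, 173 and 239 at E12.5 (log2 change -0.77). Hoxa5, known for lung and trachea, read 221, 356 and 664 at E14.5 against 227, 758 and 877 at E12.5 (log2 change -0.82). In both the lowest E12.5 reading came from KO testis replicate 2, with 71.2 for Hoxa3 and 227 for Hoxa5. Hoxd3, a vertebral gene of the same paralog group as Hoxa3, read 13.4, 26.5 and 48.6 at E14.5 against 28.6, 60.8 and 87.4 at E12.5 (log2 change -0.98, SE 0.25, limma adjusted p = 0.0126). Hoxc5, a neck and brachial gene, read 208, 294 and 468 at E14.5 against 238, 644 and 952 at E12.5 (log2 change -0.99, SE 0.19, limma adjusted p = 0.00191). The 2 arrays of each pair of groups were nevertheless apart for Hoxc5, with every E14.5 array below every E12.5 array in 4 of 4 pairs.

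Within cluster B, Hoxb6, a rib and trunk gene, read 12.3, 22.4 and 38.9 at E14.5 against 25.8, 49.0 and 58.7 at E12.5 (log2 change -0.89, SE 0.17, limma adjusted p = 0.00191). Hoxb5, known in enteric neurons and the shoulder, read 17.2, 27.0 and 34.9 at E14.5 against 31.0, 41.1 and 77.3 at E12.5 (log2 change -0.69). Hoxb2 read 7.92, 13.7 and 17.2 at E14.5 against 14.7, 18.4 and 31.4 at E12.5 (log2 change -0.52). All 3 overlapped between stages, Hoxb6 through 1 array at E12.5, KO testis replicate 2. Hoxb3, a hindbrain gene, read 171, 344 and 499.8 at E14.5 against 301, 465 and 636 at E12.5 (log2 change -0.54). Hoxc4, known in the oesophagus, read 276, 346 and 506 at E14.5 against 338, 511 and 642 at E12.5 (log2 change -0.51). Hoxc8, known in brachial motor neurons, read 748, 967 and 1339 at E14.5 against 1010.4, 1355 and 1596 at E12.5 (log2 change -0.39). The last 3 overlapped more widely, and limma adjusted p-values were 0.0174 for Hoxb3, 0.0158 for Hoxc4 and 0.0338 for Hoxc8.

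The remaining tested genes belong to paralog groups 6 to 11. Hoxa11 was the member that rose, reading 5.67, 14.3 and 31.8 at E14.5 against 6.21, 11.1 and 15.7 at E12.5 (log2 change 0.45, SE 0.15, limma adjusted p = 0.035). Its highest readings at E14.5 were in ovary, where both E14.5 arrays of each genotype lay above both E12.5 arrays, and in KO testis the stages overlapped. Hoxa9, a gene of the oviduct region and of blood progenitors, read 416, 719 and 1629 at E14.5 against 596, 1174 and 1625 at E12.5 (log2 change -0.51, SE 0.14, limma adjusted p = 0.0162). Both E14.5 arrays lay below both E12.5 arrays in testis of either genotype, and the stages overlapped in ovary of either genotype. A second Hoxa9 probe set gave a stage change of -0.01, and with the mean of its probe sets Hoxa9 did not pass (-0.26, limma adjusted p = 0.161). Hoxa7, Hoxa10, Hoxb9, Hoxc6, Hoxd8, Hoxd9 and Hoxd10 did not pass the test, with log2 changes between -0.52 for Hoxc6 (limma adjusted p = 0.0737) and 0.33 for Hoxa10 (adjusted p = 0.327). For Hoxd8 the change was 0.03 with a 95% interval of -0.18 to 0.25. The Hoxa11 call was lost in 10 of 16 leave-outs of 1 array (log2 changes 0.36 to 0.55) and kept without KO testis, KO ovary or WT ovary replicate 1 at E14.5, and without KO testis replicate 1, labelled KO ovary replicate 2 or WT ovary replicate 2 at E12.5. That of Hoxc8 was also lost in 10 of 16 (log2 changes -0.48 to -0.31) and kept without KO testis, WT testis or KO ovary replicate 2 or WT ovary replicate 1 at E14.5, and without KO testis replicate 2 or WT ovary replicate 1 at E12.5.

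**Figure D2:**
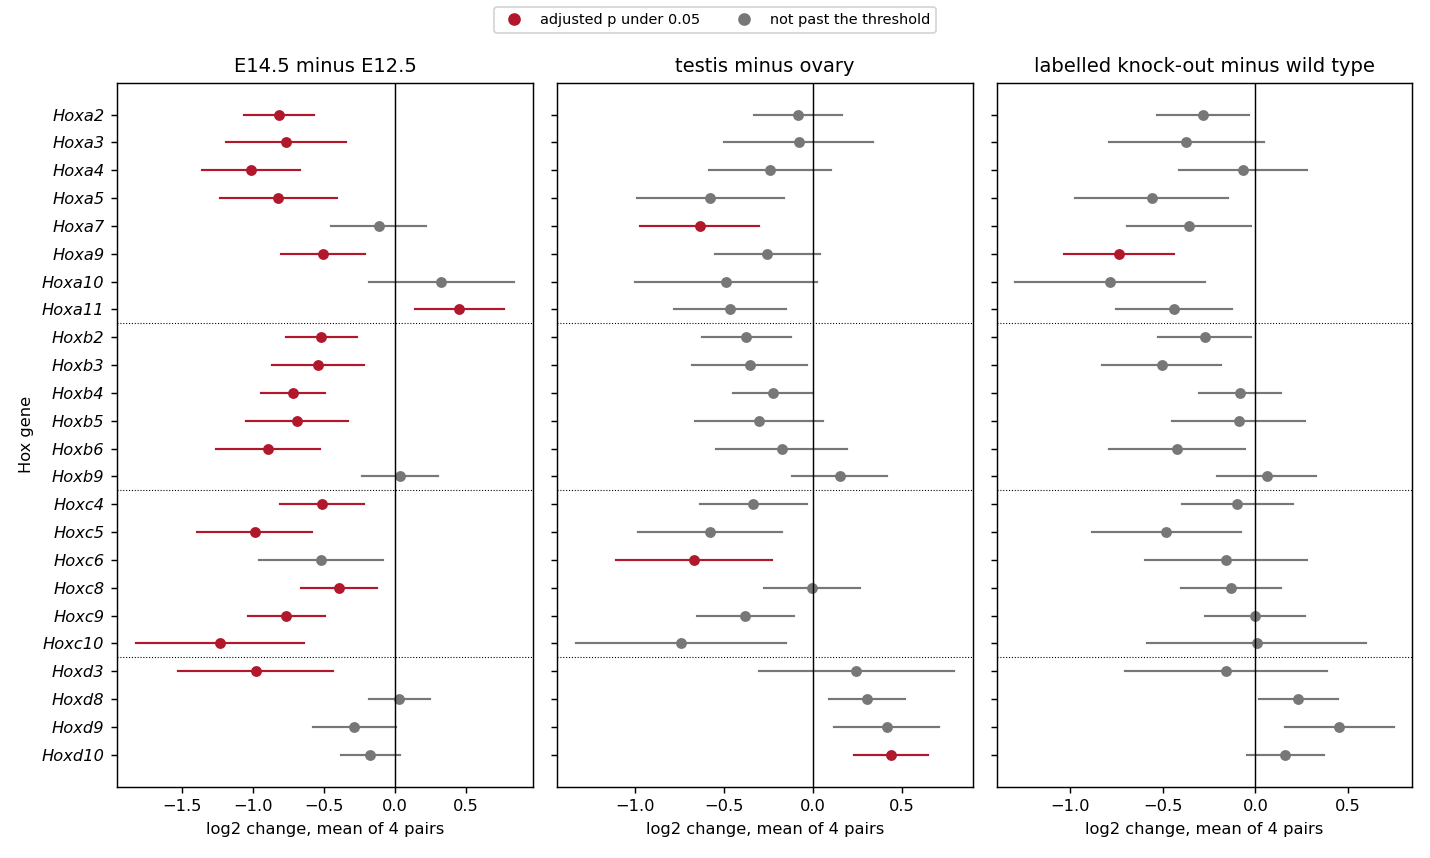
Points are log2 changes of the 24 tested Hox genes (rows) averaged over 4 pairs of groups, for E14.5 minus E12.5, testis minus ovary and labelled knock-out minus wild type, with bars for the 95% interval of the moderated fit and red for an adjusted p under 0.05. In the stage panel 16 of 17 red points lie left of 0, and in the other panels most points of clusters A to C lie left of 0 while Hoxd8, Hoxd9 and Hoxd10 lie right of it.

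The number of stage calls was 12 without the 3 high-ratio arrays, 10 with the 3'/5' ratio as a covariate and 11 without the 3 E14.5 arrays of high opposite-sex share, and Hoxa2, Hoxa4, Hoxb4, Hoxb6, Hoxc5 and Hoxc9 were called in all of these. Of these genes Hoxa4 passed the filter through E12.5, so its call is no support for a stage difference. The share of all genes called in these fits is not given here. A change in the Hox count thus cannot be told from a change over all genes. Markers of other cell types also differed between stages. All 7 tested neuron markers fell at E14.5, and their summed intensity was 100.6 to 204 at E14.5 against 344 to 2440.3 at E12.5, and each of the 8 listed genes passed the array median in at least 1 array. The chromaffin and sympathetic list fell in 7 of 7 tested genes (sum 224 to 819 at E14.5 against 558 to 6202 at E12.5, with Prph at or under the median in every array). Neuron genes above the array median numbered 2 to 4 per array at E14.5 against 6 to 8 at E12.5, and chromaffin genes 2 to 3 against 6 to 7. Genes of these lists thus passed the filter largely through E12.5, so their counts are no support for a stage difference. Of all genes tested, 13.5% fell and 13% rose. Mesonephros and duct markers fell in 5 of 10 (sum 696 to 2438 at E14.5 against 1152 to 3221 at E12.5), and germ cell markers rose in 3 of 6 and fell in 1 (sum 4201 to 10733 at E14.5 against 2238 to 4917 at E12.5). Every mesonephros and germ cell marker passed the array median in at least 5 arrays. Erythroid markers fell in 2 of 3 tested genes (sum 11970 to 20525 at E14.5 against 26290 to 33015 at E12.5). Fetal Leydig markers rose in 4 of 5, with overlapping sums (137 to 12674 against 151 to 1364). Interstitial and stromal markers rose in 4 of 9 and fell in 1. The part of these cells in the Hox differences was not tested. KO testis E12.5 replicate 2, low for Hoxa3, Hoxa5 and Hoxc5, also had the lowest neuron sum of the E12.5 arrays, 344 against 1111 in replicate 1. On the axis of 1285 non-Hox genes that separates WT testis at E14.5 (100%) from WT testis at E12.5 (0%), that array lay at 45.5% and replicate 1 at 23.4%.

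**Figure D3:**
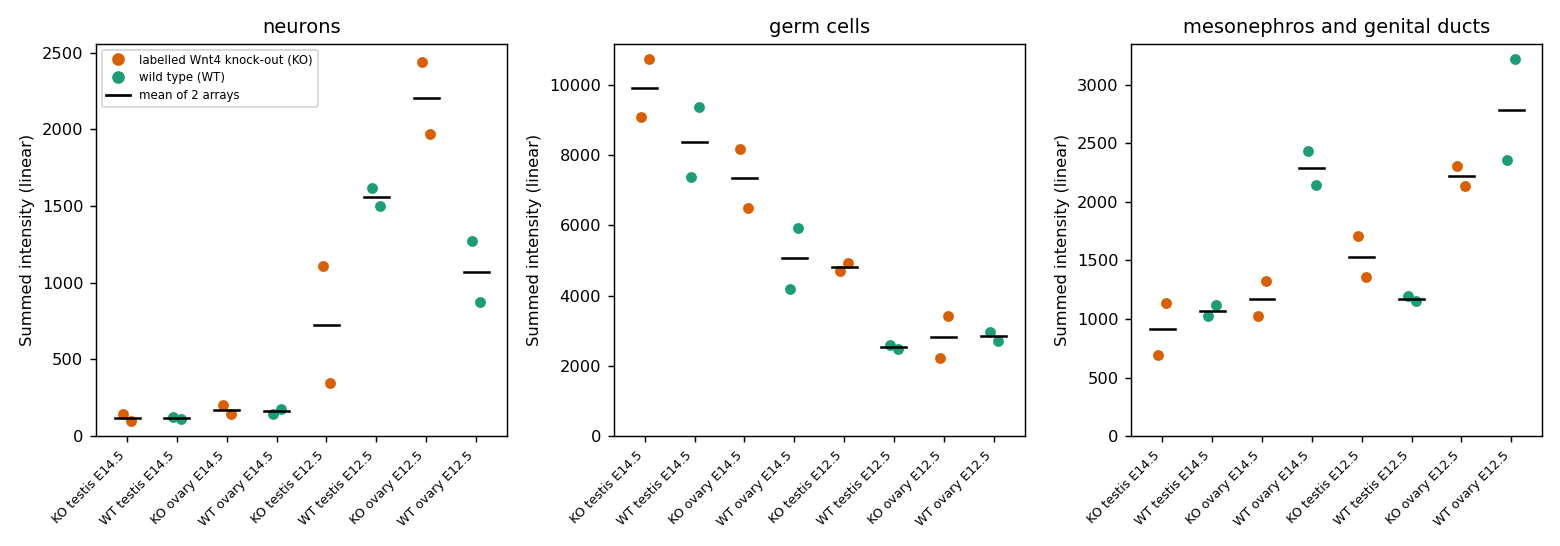
Summed linear intensity of the neuron, germ cell and mesonephros and duct marker lists (y axis) on each array (points), by group (x axis), with bars at the mean of 2 arrays. Neuron sums are 100.6 to 204 at E14.5 against 344 to 2440.3 at E12.5, and germ cell sums are 4201 to 10733 at E14.5 against 2238 to 4917 at E12.5.

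Taken in WT testis alone, E14.5 against E12.5, 6 Hox genes fell and none rose, where 3.82% of all genes tested fell and 10.5% changed in either direction. The Hox median was -0.67 against 0.07 for all genes. Hoxd3 read 31.3 and 13.4 at E14.5 against 81.8 and 83.6 at E12.5 (log2 change -1.80, SE 0.51, limma adjusted p = 0.0385). Hoxa3 read 103 and 77.1 at E14.5 against 239 and 232 at E12.5 (log2 change -1.37, adjusted p = 0.041). Both E14.5 arrays lay below both E12.5 arrays in these and in the other 4 genes. As all were named for passing the test and no share of all genes is given, this adds no support. Hoxc5 read 337 and 208 at E14.5 against 637 and 655 at E12.5 (log2 change -1.27, adjusted p = 0.0462). Hoxa9 read 756 and 612 at E14.5 against 1625 and 1534 at E12.5, 2.31-fold lower (log2 change -1.21, SE 0.28, limma adjusted p = 0.0146). Hoxa2 read 11.2 and 14.4 at E14.5 against 28.6 and 27.0 at E12.5 (log2 change -0.93, adjusted p = 0.0227), and Hoxb4 read 10.8 and 9.85 at E14.5 against 18.7 and 19.9 at E12.5 (log2 change -0.70, adjusted p = 0.0468). No Hox gene was called when the nearly identical E12.5 arrays were averaged to 1, or without either of them or WT testis E14.5 replicate 2. The count was 2 without WT testis E14.5 replicate 1, and 3 without either KO testis E14.5 array. Hoxc5 kept its call in 6 of 16 leave-outs of 1 array, losing it without any E14.5 array or either WT testis E12.5 array, and Hoxb4 in 4, losing it without any E14.5 array or any testis array at E12.5.

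In WT ovary 1 gene fell and none rose at E14.5, where 4.29% of all genes tested passed the threshold and 1.82% fell. It was Hoxb4, with 9.87 and 11.2 at E14.5 against 17.2 and 26.7 at E12.5 (log2 change -0.82, SE 0.21, limma adjusted p = 0.0421), and its 2 pairs of arrays did not overlap. Hoxa11 read 23.5 and 31.8 at E14.5 against 10.1 and 15.7 at E12.5, a difference that did not pass the test (log2 change 0.91, limma adjusted p = 0.107). Hoxd9, a limb and lower trunk gene, read 377 and 742 at E14.5 against 799 and 1090.1 at E12.5 (log2 change -0.81, adjusted p = 0.125). Hoxa4 read 10.9 and 8.80 at E14.5 against 18.9 and 26.8 at E12.5 (log2 change -0.94, adjusted p = 0.129). In each of these 3 genes the stages did not overlap either. As the genes were named by p and no share of all genes is given, this is no support for a difference. The Hoxb4 call was lost in 11 of 16 single leave-outs, among them both WT ovary E14.5 arrays (log2 changes -0.75 without replicate 1 and -0.88 without replicate 2) and WT ovary E12.5 replicate 2 (-0.55), and each of the 8 testis arrays of either genotype and stage (adjusted p 0.0525 to 0.0746). Without WT ovary E12.5 replicate 1, which had 18.2% testis RNA by its sex-linked transcripts, 4 Hox genes were called.

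**Figure D4:**
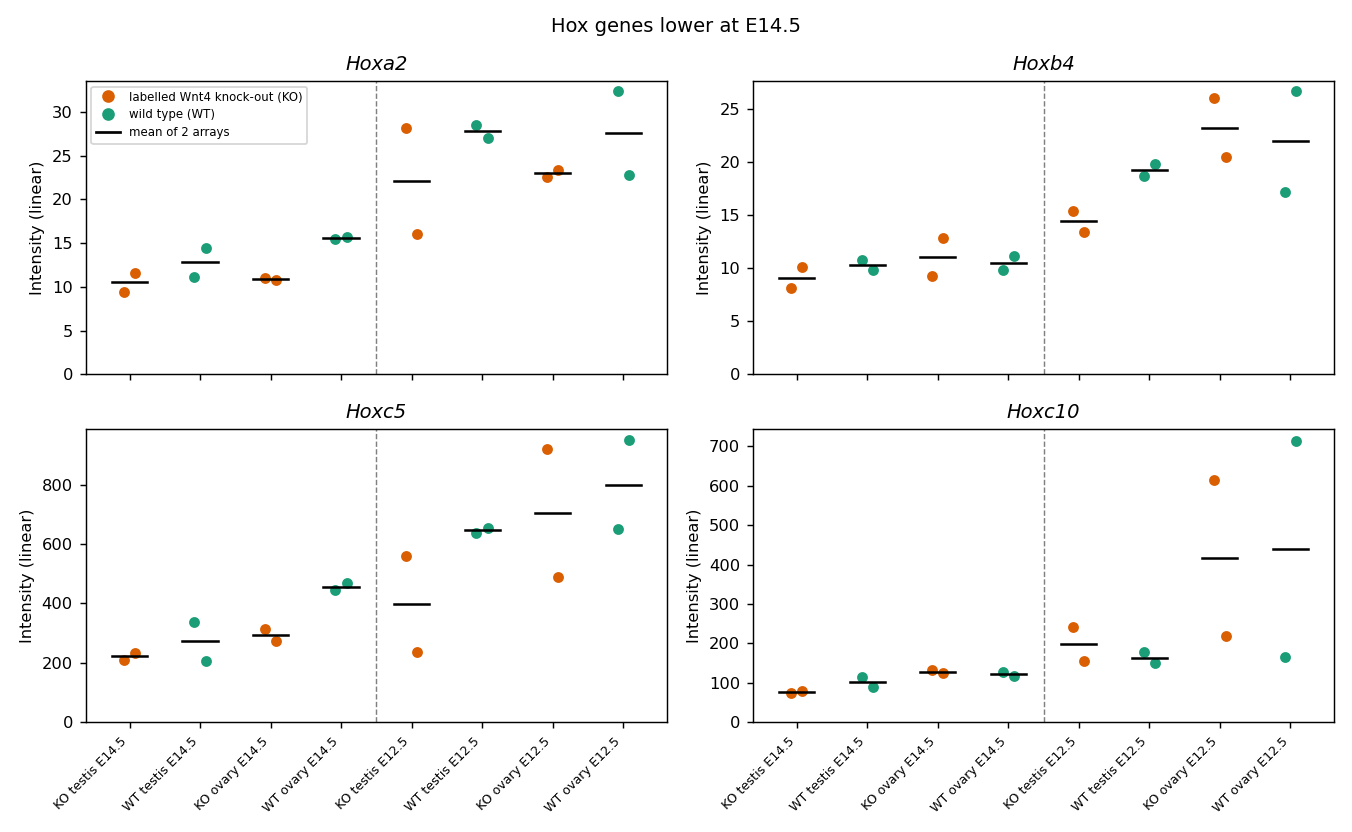
Linear intensity (y axis) of Hoxa2, Hoxb4, Hoxc5 and Hoxc10 on each array (points), by group (x axis), with bars at the mean of 2 arrays and E14.5 groups left of the dashed line. Hoxa2, Hoxb4 and Hoxc10 do not overlap between stages, and Hoxc10 reaches 616 and 713 on 1 array of each E12.5 ovary pair.

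The comparison of sexes asked which Hox genes differed between testis and ovary, averaged over the 4 pairs of genotype and stage. Of 24 tested genes 2 were lower in testis and 1 was higher, 12.5% in all, where 11.2% of all genes tested passed the threshold, 5.86% lower and 5.3% higher. The share is close to that of all genes. Cluster D stood on the other side of 0 from the rest, with medians of 0.36 for D against -0.36 for A, -0.27 for B and -0.48 for C, and -0.04 for all genes.

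Hoxd10, a gene of lumbar motor neurons and the hindlimb, was the member higher in testis, reading 402, 532 and 611 in testis (lowest, median and highest of 8 arrays) against 304, 398 and 473 in ovary, 1.35-fold higher (log2 change 0.44, SE 0.10, limma adjusted p = 0.0104). Its difference was positive in all 4 pairs, without overlap in 3, and it passed in all 16 alternatives and in all 16 leave-outs of 1 array. Hoxd8 read 366, 457 and 567 in testis against 328, 368 and 474 in ovary (log2 difference 0.30, adjusted p = 0.067). Hoxd9 read 749, 1124 and 1414 in testis against 377, 795 and 1154 in ovary (log2 difference 0.41, adjusted p = 0.0686). Neither passed the test, although both testis arrays were above both ovary arrays in 4 of 4 pairs for Hoxd8 and in 3 of 4 for Hoxd9.

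Hoxa7, a thoracic gene, was lower in testis, reading 12.6, 22.0 and 32.8 in testis against 22.7, 38.0 and 48.7 in ovary (log2 change -0.64, SE 0.15, limma adjusted p = 0.0186), with both testis arrays below both ovary arrays in 4 of 4 pairs. Hoxc6, a brachial and thoracic gene, read 42.3, 75.1 and 129 in testis against 81.5, 116 and 211 in ovary (log2 difference -0.67, SE 0.20), with an adjusted p of 0.05 after rounding, just under the threshold. Hoxb2 read 7.92, 15.3 and 18.6 in testis against 10.4, 17.7 and 31.4 in ovary (log2 difference -0.37, adjusted p = 0.0569), again with 4 of 4 pairs apart. The groups of 8 overlapped in all 6 genes. Hoxc6 lost its call in 10 of 16 alternatives and kept it in 3 of 16 single leave-outs, without WT testis E14.5 replicate 1, labelled KO ovary E12.5 replicate 2 or WT ovary E12.5 replicate 1. Hoxa7 lost its call without WT testis E14.5 replicate 2 (-0.59), KO ovary E14.5 replicate 2 (-0.55) or WT testis E12.5 replicate 1 (-0.62). The number of calls was 8 with the opposite-sex covariate, 8 without labelled KO ovary E12.5 replicate 2, 9 without WT ovary E12.5 replicate 1 and 6 without KO testis E12.5 replicate 1, and it was 1 without WT testis E14.5 replicate 2, KO ovary E14.5 replicate 2 or WT testis E12.5 replicate 1. Mesonephros and duct markers were lower in testis in 5 of 10 tested genes, with a sum of 696 to 1708 in testis against 1026 to 3221 in ovary, and their part was not tested.

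In WT gonads at single stages no Hox gene passed the test for testis against ovary. At E14.5 this held with 3.83% of all genes called and 5 members at an unadjusted p under 0.05, 20.8% of them against 15.9% of all genes. At E12.5 it held with 0.608% called and 2 such members, 8.33% against 16.7% of all genes (limma in both). At E14.5 Hoxa9 read 756 and 612 in testis against 1629 and 1189 in ovary (log2 difference -1.03, adjusted p = 0.0573). Hoxa11 read 13.7 and 13.8 in testis against 23.5 and 31.8 in ovary (log2 difference -0.82, adjusted p = 0.159). Both were lower on both testis arrays. Hoxd10 read 479 and 532 in testis against 304 and 326 in ovary (log2 difference 0.67, adjusted p = 0.0742), and Hoxd9 read 1152 and 839 in testis against 377 and 742 in ovary (log2 difference 0.89, adjusted p = 0.0979). Both were higher on both testis arrays. The count became 2 without WT ovary E14.5 replicate 2, and 1 without either KO testis E12.5 array or either labelled KO ovary E12.5 array.

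At E12.5 in WT gonads the 4 genes of smallest p were Hoxd10, Hoxb5, Hoxc9 and Hoxb2. Hoxd10 read 533 and 512 in testis against 348 and 419.7 in ovary (log2 difference 0.45, adjusted p = 0.274). Hoxb5 read 33.6 and 31.0 in testis against 41.5 and 77.3 in ovary (log2 difference -0.75, adjusted p = 0.29). Neither gene overlapped between the sexes. Hoxc9 read 18.2 and 21.0 in testis against 22.6 and 39.0 in ovary, and Hoxb2 read 18.6 and 16.3 in testis against 21.8 and 29.6 in ovary (adjusted p = 0.313 and 0.328). Both were lower in testis without overlap, and the higher ovary reading of each came from replicate 2, the array with the 3'/5' ratio of 1.76. The count became 2 without WT ovary E12.5 replicate 1. The median of all genes was -0.11 in this comparison and that of the Hox genes -0.12.

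In both genotypes Hoxa9, Hoxa10 and Hoxa11 read lower on both testis arrays than on both ovary arrays at E14.5, but not at E12.5, and the interaction of stage and sex tests such a difference. For Hoxa9 the stage difference in testis minus that in ovary was -1.25 on the log2 scale (SE 0.28, limma adjusted p = 0.0178), the call of 1 Hox gene of 24, where 10.2% of all genes passed, 3.71% with a negative estimate. Hoxa9 read 416 and 478 in KO testis and 756 and 612 in WT testis at E14.5, against 1257 and 686 in KO testis and 1625 and 1534 in WT testis at E12.5. It read 812 and 682 in KO ovary and 1629 and 1189 in WT ovary at E14.5, against 596 and 922 in labelled KO ovary and 1287 and 1090.1 in WT ovary at E12.5. Every E14.5 testis array was thus below its E12.5 counterparts, while the ovary arrays overlapped between stages. Testis minus ovary was -0.73 in KO and -1.03 in WT at E14.5, against 0.32 in KO and 0.41 in WT at E12.5.

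Hoxa10 and Hoxa11 gave interaction estimates of the same sign that did not pass. Hoxa10 read 22.6 and 46.4 in KO testis, 48.6 and 50.1 in WT testis, 51.8 and 140.4 in KO ovary and 80.9 and 133 in WT ovary at E14.5. At E12.5 it read 45.1 and 22.9 in KO testis, 70.5 and 95.1 in WT testis, 22.0 and 40.1 in labelled KO ovary and 79.8 and 58.0 in WT ovary (interaction -1.33, adjusted p = 0.0822). The highest readings were those of ovary replicate 2 at E14.5 in both genotypes, and the 2 arrays of these ovary pairs lay far apart. Hoxa11 read 5.67 and 9.997 in KO testis, 13.7 and 13.8 in WT testis, 14.8 and 28.2 in KO ovary and 23.5 and 31.8 in WT ovary at E14.5, against 12.1 and 6.21, 13.4 and 12.3, 7.73 and 9.55 and 10.1 and 15.7 in the same order of groups at E12.5 (interaction -0.97, adjusted p = 0.0514). Hoxd9 had an estimate of the opposite sign, 0.75 (adjusted p = 0.0876). The Hoxa9 interaction was -0.82 without the 3 arrays of high 3'/5' ratio (adjusted p = 0.0892), and it also lost the call without KO ovary E14.5 replicate 1 (-1.19), without WT testis E12.5 replicate 1 (-1.23) or with the WT testis E12.5 arrays averaged (adjusted p = 0.051). The number of Hox calls was 2 without WT ovary E14.5 replicate 2, KO testis E12.5 replicate 2, labelled KO ovary E12.5 replicate 2 or WT ovary E12.5 replicate 1. The second Hoxa9 probe set gave an interaction of -1.16.

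**Figure D5:**
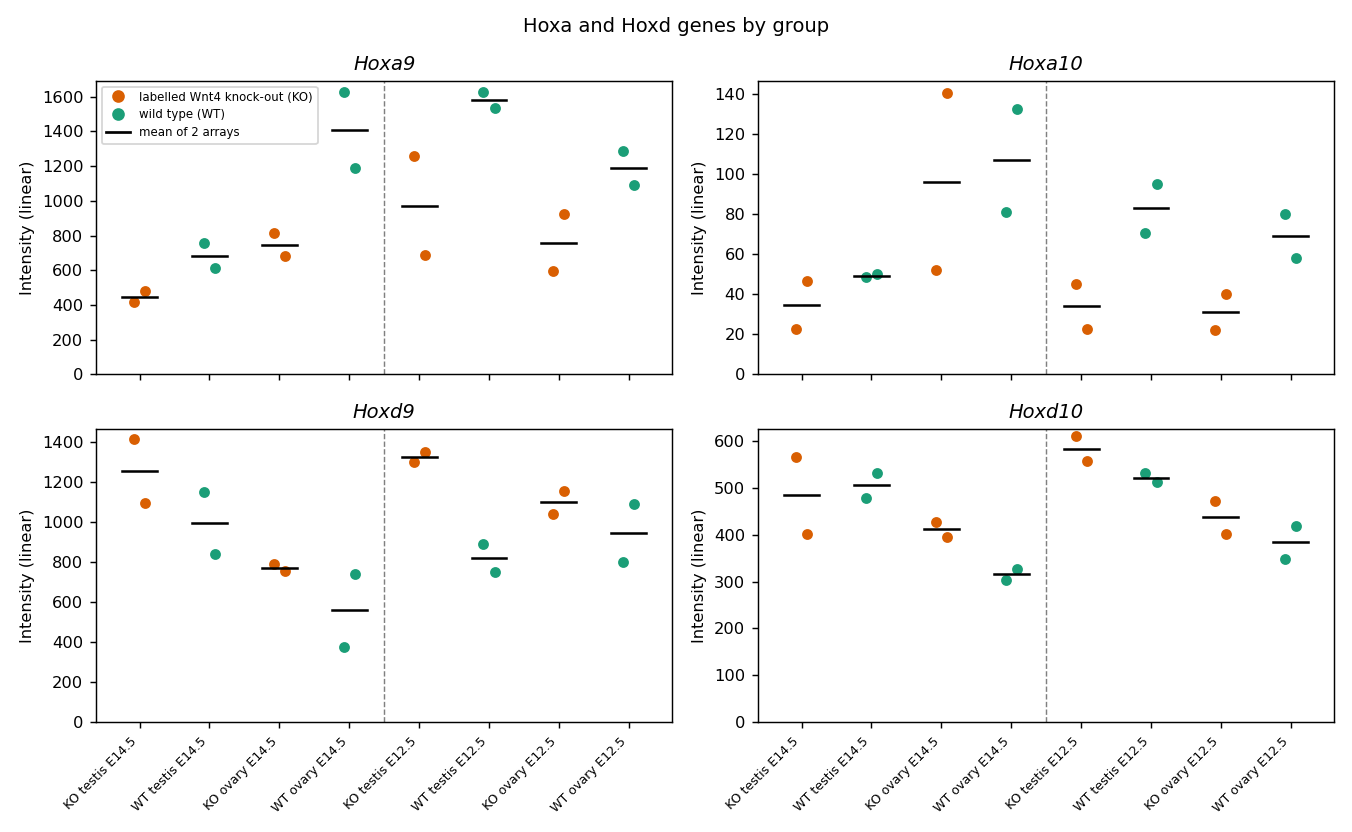
Linear intensity (y axis) of Hoxa9, Hoxa10, Hoxd9 and Hoxd10 on each array (points), by group (x axis), with bars at the mean of 2 arrays and E14.5 groups left of the dashed line. Hoxa9 points labelled knock-out lie below the wild-type points of the same sex and stage in each pair. The Hoxd10 mean lies higher in testis than in ovary in 4 of 4 pairs, without overlap of the points in 3.

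The genotype comparison asked which Hox genes differed with the labelled Wnt4 genotype, knock-out against wild type, averaged over the 4 pairs of sex and stage. Of 24 tested Hox genes, 1 fell and none rose, where 1.41% of all genes tested passed the threshold and 0.705% fell. The gene was Hoxa9. At an unadjusted p under 0.05 there were 12 members, 10 lower and 2 higher, which is 50.0% of them, against 10.2% of all genes. This mean includes KO testis at E12.5, whose arrays lay at 23.4% and 45.5% of the way from WT testis E12.5 to E14.5. In that pair a genotype difference and a stage difference cannot be told apart. The Hox median was -0.16, against 0.03 for all genes. All 8 tested Hoxa genes had a negative estimate (median -0.41), where 39.8% of all genes tested had one. Other Hoxa probe sets that passed the filter gave -0.11 for Hoxa3 and -0.66 for Hoxa9, but 0.01 for Hoxa5. The medians were -0.18 for cluster B, -0.12 for C and 0.20 for D.

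Hoxa9 read 416, 684 and 1257 in labelled KO gonads (lowest, median and highest of 8 arrays) against 612, 1238 and 1629 in WT gonads, 1.66-fold lower (log2 change -0.74, SE 0.14, limma adjusted p = 0.0189). Both KO arrays lay below both WT arrays in 4 of 4 pairs, with differences of -0.61 in testis at E14.5, -0.90 in ovary at E14.5, -0.76 in testis at E12.5 and -0.67 in ovary at E12.5 on the log2 scale. The groups of 8 overlapped. A second Hoxa9 probe set gave a mean change of -0.66. The call was lost without 1 array in 5 of 16 cases, KO testis E14.5 replicate 1 (-0.71), WT testis E14.5 replicate 1 (-0.70), KO ovary E14.5 replicate 2 (-0.70), WT testis E12.5 replicate 1 (-0.72) and WT testis E12.5 replicate 2 (-0.75), with limma adjusted p of 0.0542 to 0.0648. With the 2 WT testis E12.5 arrays averaged it was also lost (adjusted p = 0.0631).

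The next members by p did not pass. Hoxb3 read 171, 344 and 455 in labelled KO gonads against 274, 488 and 636 in WT gonads (log2 change -0.51, adjusted p = 0.165). Hoxa10 read 22.0, 42.6 and 140.4 in labelled KO gonads against 48.6, 75.2 and 133 in WT gonads (log2 change -0.78, adjusted p = 0.175). Both had negative estimates in 4 of 4 pairs, without overlap in 3. Hoxd9 read 753, 1124 and 1414 in labelled KO gonads against 377, 819 and 1152 in WT gonads (log2 change 0.45, adjusted p = 0.171), positive in 4 of 4 pairs and without overlap in 2. The number of calls was 3 without the 3 arrays of high 3'/5' ratio, and 2 without KO testis E12.5 replicate 1, without WT ovary E14.5 replicate 2 or without the 3 E14.5 arrays of high opposite-sex share. Mesonephros and duct markers summed to 1026 and 1321 in KO ovary against 2438 and 2140 in WT ovary at E14.5, and 1 of 10 such markers fell in labelled KO gonads on average. Pre-granulosa markers, a list of 8 that holds Wnt4 itself, fell in 5 of 8 (median log2 change -1.13), with a sum of 588 to 2066 in labelled KO against 881 to 5007 in WT gonads, and each passed the array median in at least 1 array. The part of either cell type in the Hoxa9 difference was not tested.

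In single pairs no Hox gene passed the test for KO against WT. In testis at E14.5 0.00811% of all genes were called and 2 members, Hoxb2 and Hoxa9, had an unadjusted p under 0.05, 8.33% of them against 1.48% of all genes. Hoxb2 read 7.92 and 10.03 in KO testis against 16.2 and 13.1 in WT testis (log2 change -0.52, unadjusted p = 0.0427 by limma), and Hoxa9 read 416 and 478 in KO testis against 756 and 612 in WT testis (log2 change -0.61, unadjusted p = 0.0463). Hoxa11, next by p, read 5.67 and 9.997 in KO testis against 13.7 and 13.8 in WT testis (log2 change -0.61). Hoxb3 read 171 and 306 in KO testis against 274 and 412 in WT testis (log2 change -0.55). The limma adjusted p-values of these 4 genes were 1.0, and the Hoxb3 pairs overlapped.

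In ovary at E14.5 0.543% of all genes were called and 1 member, Hoxa9, had an unadjusted p under 0.05, 4.17% of them against 5.72% of all genes. Hoxa9 read 812 and 682 in KO ovary against 1629 and 1189 in WT ovary (log2 change -0.90, SE 0.28, limma adjusted p = 0.312). Hoxd9 read 792 and 753 in KO ovary against 377 and 742 in WT ovary (log2 change 0.54, adjusted p = 0.982), and Hoxd10 read 427 and 395 in KO ovary against 304 and 326 in WT ovary (log2 change 0.38, adjusted p = 0.998). Hoxb3 read 254 and 383 in KO ovary against 499.8 and 404 in WT ovary (log2 change -0.52, adjusted p = 1.0). In these 4 genes the 2 arrays of each genotype did not overlap, Hoxa9 and Hoxb3 being lower in KO and both Hoxd genes higher. They were named for their small p, and the share of all genes apart in this way is not given, so this is no support for a difference.

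In testis at E12.5 0.0243% of all genes were called, and 8 members had an unadjusted p under 0.05, 7 of them lower in KO (29.2% of the Hox genes, against 2.5% of all genes lower at that p). The median was -0.33 for the Hox genes and 0.10 for all genes. Hoxa5 read 692 and 227 in KO testis against 859 and 803 in WT testis (log2 change -1.06, SE 0.38, limma adjusted p = 0.324). Hoxa9 read 1257 and 686 in KO testis against 1625 and 1534 in WT testis (log2 change -0.76, adjusted p = 0.324), and Hoxa10 read 45.1 and 22.9 in KO testis against 70.5 and 95.1 in WT testis (log2 change -1.24, adjusted p = 0.353). Second probe sets that passed the filter gave 0.11 for Hoxa5 and -1.04 for Hoxa9. In the probe sets used, replicate 2 was the lower KO array for all 3 Hoxa genes, and it is the array that lay nearer to E14.5 on the stage axis. Genotype and stage differences thus cannot be told apart in this pair. Hoxd9 read 1302 and 1352 in KO testis against 889.6 and 749 in WT testis (log2 change 0.70, adjusted p = 0.362), higher on both KO arrays. The count became 1 without KO testis replicate 1, and 4 without the 3 arrays of high 3'/5' ratio.

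In ovary at E12.5, where the labelled genotype is in doubt for 1 array, 0.276% of all genes were called and 2 members had an unadjusted p under 0.05, 8.33% of them against 7.99% of all genes. Hoxa9 read 596 and 922 in labelled KO ovary against 1287 and 1090.1 in WT ovary (log2 change -0.67, limma adjusted p = 0.556). Hoxa10 read 22.0 and 40.1 in labelled KO ovary against 79.8 and 58.0 in WT ovary (log2 change -1.09, adjusted p = 0.593). For both genes replicate 1, the array whose Wnt4 reading matched WT, was the lower of the pair. Hoxb3 read 421 and 455 in labelled KO ovary against 601 and 636 in WT ovary (log2 change -0.49, adjusted p = 0.727), and Hoxd3 read 28.6 and 39.5 in labelled KO ovary against 63.3 and 58.3 in WT ovary (log2 change -0.78, adjusted p = 0.737). Both were lower in labelled KO without overlap.

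No Hox gene passed the test of whether the genotype difference depended on sex or on stage, where 0.073% and 0.00811% of all genes passed, and no member reached an unadjusted p under 0.05 in either (limma). The smallest p for sex was that of Hoxc6, with a knock-out difference of -0.03 and -0.95 in testis at E14.5 and E12.5, against 0.04 and 0.30 in ovary. The others were Hoxb4, Hoxd10 and Hoxa5, all with negative interaction estimates (testis minus ovary) between -0.48 and -0.24 on the log2 scale and an adjusted p of 0.999. The smallest p for stage was that of Hoxd3, whose knock-out difference at E14.5 minus that at E12.5 was 1.01 (adjusted p = 0.797). The next were Hoxc9 (-0.47), Hoxa10 (0.77) and Hoxb2 (-0.33). For Hoxa9 the 95% interval of this difference was -0.63 to 0.56 by stage and -0.49 to 0.70 by sex, so a moderate difference of its genotype effect between groups could not be told from none.

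Partner and regulator genes were read from lists of known members, and their counts stand against 26.5% of all genes called for stage, 11.2% for sex and 1.41% for genotype. Of 7 tested Hox cofactors of the TALE class, 4 fell at E14.5, Meis3, Meis1, Meis2 and Pbx2. Meis3 read 17.0, 23.2 and 27.6 at E14.5 (lowest, median and highest) against 31.1, 42.4 and 58.4 at E12.5 (log2 change -0.76, limma adjusted p = 0.000726), and Meis2 fell by 0.63 with overlap between stages. Meis1 was lower in testis (log2 difference -0.26, adjusted p = 0.0384). Pknox2 was higher in labelled KO gonads, with 205 to 431 in KO against 113 to 231 in WT (log2 change 0.84, adjusted p = 0.00819).

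Of 12 tested genes of retinoic acid response and metabolism, 6 fell and 3 rose at E14.5, among them Crabp1, a retinoic acid binding protein (-2.43), and Stra8, the meiotic gatekeeper of germ cells (4.06). In testis 5 were lower and 2 higher than in ovary, among them Cyp26b1, the enzyme that degrades retinoic acid (2.38), and Stra8 (-2.57). Stra8 read 4.55 to 12.7 at E12.5, and its highest reading was 104 in testis against 1149 in ovary. Its stage change is thus a mean over sexes that differ, measured against dim E12.5 readings. The Stra8 medians of 5.30 at E12.5 and 5.64 in testis lay under the lowest array median, 9.32. Stra8 thus passed the filter largely through E14.5 and ovary, so its calls are no support for a stage or sex difference. Both counts above, the 3 that rose and the 5 lower in testis, include it. Rarb, a retinoic acid receptor and itself a retinoic acid target, was the member of this list that fell in labelled KO gonads, reading 58.3, 117 and 152 in KO against 120.3, 246 and 316 in WT (log2 change -1.07, adjusted p = 0.00233). Of 18 tested Polycomb and Trithorax genes, which silence Hox clusters or keep them open, 3 fell at E14.5 (Cbx2 -0.83, Jarid2 -0.50 and Ezh2 -0.32) and 1 rose (Cbx8 0.30). Cbx7 was called higher in testis (0.30), with 6.22 to 10.6 in testis against 4.86 to 7.39 in ovary. It lay under the array median on every ovary array and thus passed the filter through testis, so its call is no support for a sex difference. Of 5 tested genes that border the Hox clusters, Skap2 was lower in testis (log2 difference -0.49, adjusted p = 0.022), and none passed for stage or genotype. None of the 6 ParaHox and Cdx genes passed the filter.

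Other probe sets of the same genes gave a check on single readings. There were 15 of them for 11 genes, and 10 passed the filter on dim values. Of these 10, 9 had a stage change of the same sign as the probe set used, the one of Hoxa9 (-0.01 against -0.51) among them. The second Hoxd8 set gave 0.40 for testis minus ovary and 0.47 for labelled KO minus WT, but -0.34 for stage, where the set used gave 0.03. The second Hoxb3 set gave a stage change of -0.80 and a genotype change of -0.43. Stage changes were smaller in the other passing sets of Hoxa5 (-0.27 against -0.82), Hoxb4 (-0.20 against -0.72) and Hoxa3 (-0.32 against -0.77). That Hoxb4 set passed the array median in 2 arrays. The second Hoxa5 set, above the median in all 16 arrays, gave a genotype change of 0.01. The 2 other Hoxc5 sets gave stage changes of -0.22 and -0.35, smaller than the -0.99 of the set used, and genotype changes of -0.85 and -0.37.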

How the data were processed

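The data were intensities of 45101 probe sets on 16 arrays, deposited by the authors in 1 table on a linear scale. The only tool that the submitters' processing notes name is MAS5, with its role, version and scaling target not given in the sources used here. Probe sets were named from GEO's platform annotation, in which 34945 have 1 gene and 932 several, with 34754 symbols found in the current gene table through Entrez numbers.

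Intensities were taken as deposited and tested as log2(intensity + 4). Probe sets above their array's median in at least 2 arrays were kept (25596), and each gene was read from its kept probe set of highest mean (12332 genes). One model with a mean per group over the 16 arrays was fitted with limma 3.58.1 in R 4.3.3, its prior variance following the intensity (residual degrees of freedom 8, prior 5.23). Comparisons were contrasts of group means, p-values were two-sided and adjusted by Benjamini-Hochberg over all 12332 genes, and the threshold was 0.05. Averages over 4 pairs share arrays with the single pairs, and so do the comparisons of stage, sex and genotype. The procedure was tested on simulated data. Alternatives changed the pseudocount, filter, normalization, variance model, weights, probe set choice, covariates, threshold and arrays in the fit.

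Genes are named with values where they passed the threshold in a comparison, and otherwise where they had 1 of the 4 smallest p-values among the Hox genes; for other lists, genes that passed are named. Members and lists were chosen with earlier results of these data known. The opposite-sex share was read from Xist and Y-linked transcripts, the 3'/5' ratio from the control probe sets. Replicate numbers did not pair the arrays throughout: 7 of 28 pairs of groups had a correlation over 0.1, all lay from -0.66 to 0.58, and the highest was that of KO and WT testis at E14.5. Promoters came from RefSeq, GRCm38.p6. Figures and searches used Python 3.11.15.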

Additional observations from a re-analysis of the deposited data

Results flagged for a closer look

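Hoxa9 differed between the sexes in its stage change. The change at E14.5 against E12.5 in testis minus that in ovary was -1.25 on the log2 scale by the interaction term, with stage changes of -1.05 in KO testis and -1.21 in WT testis, against 0.01 in labelled KO ovary and 0.23 in WT ovary (limma adjusted p = 0.0178).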

How the results depend on the processing

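Groups of 2 arrays, nearly identical WT testis arrays at E12.5 and the unknown scaling limit what can be said of single pairs, and genes near the array median (Hoxa4, Hoxa11, Hoxb4 and Hoxb9) are limited by background. Leaving out the 3 E12.5 arrays of high 3'/5' ratio or 3 E14.5 arrays of high opposite-sex share, and crossing the replicate numbers, were chosen after seeing the data. No result changed direction in any alternative run. The counts of Hox genes called stayed at 0 in all alternatives and leave-outs for KO against WT in ovary at either stage (0 to 0 without 1 array), in testis at E14.5 (0 to 0), and for both interactions with genotype (0 to 0 each). The stage mean (17) was 10 with the 3'/5' ratio as a covariate and 11 without the arrays of high opposite-sex share, and 15 to 17 without 1 array. The WT testis stage count (6) was 11 with array weights, 10 in a fit of its 4 arrays alone, 2 with the opposite-sex covariate, 0 with the WT testis E12.5 arrays averaged, 0 without the arrays of high opposite-sex share, and 0 to 7 without 1 array. The WT ovary stage count (1) was 0 with no filter, quantile normalization, array weights, the replicate block, the mean of probe sets, the averaged arrays, the 3'/5' covariate, its 4 arrays alone, or the crossed pairing, and 0 to 4 without 1 array. The sex mean (3) was 2 in 6 alternatives, in each of which Hoxc6 lost its call, 10 at an adjusted p of 0.1, 8 with the opposite-sex covariate, 5 without the arrays of high 3'/5' ratio and 1 to 9 without 1 array. In WT the sex count at E14.5 (0) was 3 at an adjusted p of 0.1, 1 with array weights and 1 without either set of 3 arrays, and 0 to 2 without 1 array, and at E12.5 (0) it was 0 to 2. The genotype mean (1) was 0 with averaged arrays, 3 without the arrays of high 3'/5' ratio, 2 without those of high opposite-sex share, and 0 to 2 without 1 array. KO against WT testis at E12.5 (0) had 4 without the arrays of high 3'/5' ratio and 0 to 1 without 1 array. The stage by sex interaction (1) was 2 with 4 times the pseudocount, with the replicate block, with the opposite-sex covariate and without the arrays of high opposite-sex share, 4 at an adjusted p of 0.1, 0 with averaged arrays or without the arrays of high 3'/5' ratio, and 0 to 2 without 1 array. With the replicate number as a block the stage mean had 17 calls, the WT testis stage 6, the sex mean 3 and the genotype mean 1, and the numbers were not taken to pair the arrays. The crossed pairing gave 0 calls in each of the 4 comparisons where it was run. Counts from alternatives and leave-outs, here and above, stand without the share of all genes called in the same fit. A change in such a count thus cannot be told from a change over all genes. The causes were not tested.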
